A study of Oryza sativa Japonica Group with 36 samples.

Results

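The 100 genes described here were selected on measured values as those with the highest transcript level at 36 days after heading (DAH) relative to every other sampled day, in the flag leaf (FL) and the second leaf (SL) alike. For each of the 38026 genes in the deposited table, the mean of log2(CPM + 1) over 3 replicates was taken per leaf and day, where CPM are counts that the authors scaled to the size of each library. The score of a leaf was its mean at 36 DAH minus its highest mean on 4, 12, 20, 28 or 44 DAH, the score of a gene was the smaller of the scores of the 2 leaves, and the 100 genes with the largest scores are called members. The height of the members at 36 DAH is therefore a description of how they were chosen, and no test was made of it.

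The libraries came from the japonica rice variety Dongjin, grown untreated in a paddy field and sampled between 7 and 8 AM at 6 ages from 4 to 44 DAH, with 3 replicates for each of the 12 combinations of leaf and day. A replicate was a pool of the middle parts of 9 leaves, and the replicates of a day were collected at the same time, so the p-values below measure the spread between such pools and a day cannot be told apart from its weather or harvest. Each library held between 5713546 and 29789199 gene-assigned reads. At 36 DAH the 3 SL libraries were shallower (6113466 to 8435021 reads) than the 3 FL libraries (15468993 to 17205973 reads). As a check of the tissue, the 8 light-harvesting LhcB genes together reached 201 to 12218 CPM per library. The 9 seed storage protein genes, which a leaf should lack, together reached 6.33 to 79.7 CPM. Their highest library was one of 20 DAH in each leaf, at 57.3 CPM in FL and 79.7 CPM in SL, against medians of 12.5 and 15.9 CPM for that day. The cause was not tested, and these ranges do not check the labels of leaf or day.

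Leaves of a cereal pass from photosynthesis to the export of nitrogen and carbon while the grain fills, and leaf transcripts follow this programme over weeks. On top of it, many leaf transcripts cycle within each day under the circadian clock, in which morning genes such as LHY and the successive PSEUDO-RESPONSE REGULATOR (PRR) genes and the evening gene GIGANTEA (GI) regulate each other. Leaf transcripts also respond within hours to cold, heat and drought, to which the DREB transcription factors and the heat shock proteins belong. In pooled leaf pieces, more cells of a type and more RNA per cell cannot be told apart.

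Over the members, the mean level on the log2(CPM + 1) scale was 4.01 at 36 DAH in FL, against 2.51 to 2.77 on the other days, and 4.25 in SL, against 2.87 to 3.16. The members stood above the mean of the other 5 days by a median of 1.27 on that scale in FL (0.69 to 2.97) and by 1.14 in SL (0.65 to 2.17). The gene scores ran from 0.50 to 1.55 with a median of 0.63, and 11 members had a score of 1 or more. The larger of the leaf scores was that of FL for 55 members and that of SL for 45.

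**Figure D1:**
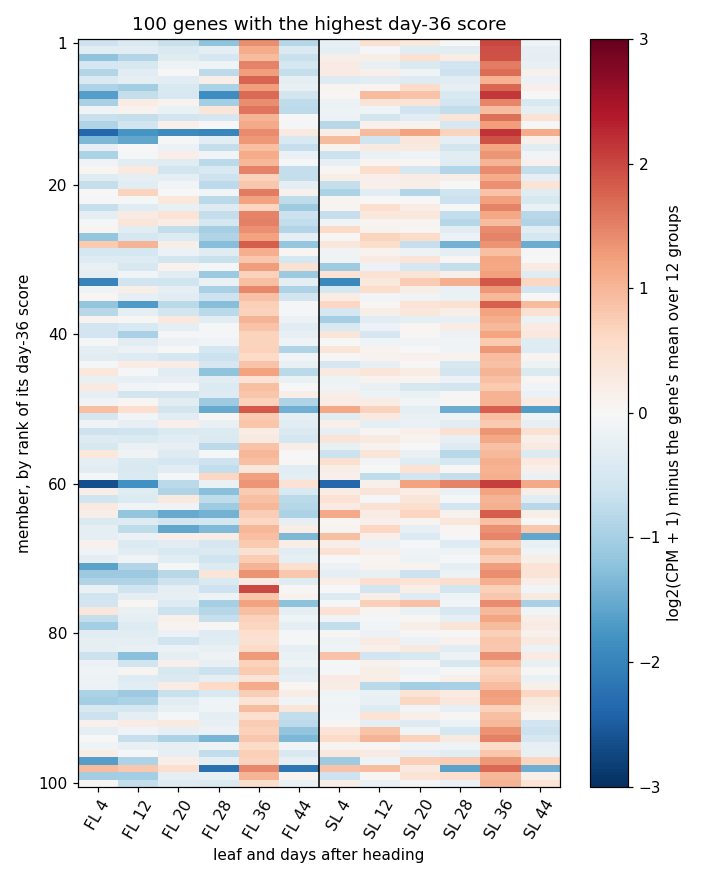
Level of the 100 members in the 12 combinations of leaf and day, as log2(CPM + 1) minus the mean of the gene over the 12, with members in rows by rank and a colour scale that ends at 3 on either side. The columns of 36 DAH are the highest in each leaf, which is how the members were chosen, and many rows also differ between early and late days.

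The limit at 100 members was not a gap in the scores. The last members inside were OS02G0704000, OS01G0878400 and OS11G0227000, each with a score of 0.50, and the genes just outside were OS03G0217000, OS04G0653300 and OS03G0306700, each with a score of 0.49. Under 10 other settings of the rule, 40 to 100 of the members were chosen again, and 27 of them under every one.

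The rule was also applied to 2 replicate numbers at a time, which gave other sets of 100 genes that shared 70 to 75 with the members. In the replicate left out, 36 DAH was again the highest day of both leaves for 74 of the 100 genes with replicate 1, for 69 with replicate 2 and for 67 with replicate 3. Over all genes tested the same was true of 4.97%, 5.69% and 5.87%. The median score of the chosen genes in the replicate left out was 0.30, 0.36 and 0.36 on the log2(CPM + 1) scale, and the left-out replicate was collected together with those used.

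All 100 members passed the filter on low values (a quantile-normalized log2(CPM + 1) of at least 1 in 3 or more libraries, met by 22057 genes). Of them, 8 reached that value in fewer than 3 libraries of other days, so they passed only with their libraries of 36 DAH. Of these 8, 4 passed through their libraries of 36 DAH alone. All 3 libraries of 36 DAH lay above the 15 other libraries of the same leaf for 89 members in FL, for 66 in SL, for 63 in both and for 8 in neither. Over all tested genes the share for both leaves was 0.617%, a contrast the rule used, so nothing is read from the count. The median SD of the 3 replicates at 36 DAH was 0.20 in FL and 0.36 in SL on the log2 scale, the latter the widest of the 6 SL days (the others 0.20 to 0.27).

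The gene with the highest score was OS01G0151400, which is protein coding in the reference and carries no name there. It was measured at 13.3, 17.3 and 20.4 CPM in the FL libraries of 36 DAH, while its other 15 FL libraries ran from 1.38 to 4.13 CPM with a median of 3.05. In SL it was measured at 28.6, 25.9 and 24.4 CPM at 36 DAH and at 3.31 to 9.79 CPM (median 5.74) otherwise. The libraries of 36 DAH lay apart from all others in each leaf, and every SL library of that day was above every FL library.

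The gene ranked next, OS05G0493800, was close to undetected except at 36 DAH. It held 3 reads or fewer in 28 of the 36 libraries, with at most 0.20 CPM in the other FL libraries and 0.56 CPM in the other SL libraries. At 36 DAH it was measured at 1.94, 1.95 and 2.06 CPM in FL and at 4.89, 3.303 and 4.59 CPM in SL. No library of another day reached these values.

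OS08G0157550, ranked sixth and without an entry in the reference, had a like pattern, with 24 libraries at 3 reads or fewer. At 36 DAH it was measured at 2.59, 4.09 and 4.82 CPM in FL and at 1.89, 1.71 and 2.22 CPM in SL, against medians of 0.14 CPM in the other libraries of each leaf, of which the highest was 1.44 CPM in FL and 0.34 CPM in SL. Its identifier comes directly before that of the clock gene LHY (OS08G0157600), which was measured at 2304 to 4770 CPM in the same libraries. The strand setting of the read counting is not given in the sources used here, so reads of a neighbouring or antisense transcript cannot be told apart from its own.

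OS11G0240600 was measured at 4.85, 8.38 and 9.0 CPM in FL and at 11.997, 12.8 and 21.5 CPM in SL at 36 DAH, against at most 3.22 CPM in the other FL libraries and 6.76 CPM in the other SL libraries. OS02G0624300 was measured at 4.14, 2.83 and 5.96 CPM in FL and at 4.78, 2.32 and 7.12 CPM in SL, against at most 1.402 and 1.98 CPM otherwise. OS08G0462900 was measured at 9.96, 14.1 and 10.8 CPM in FL and at 14.1, 12.7 and 21.7 CPM in SL, against at most 4.65 and 7.23 CPM otherwise. In all of these genes the libraries of 36 DAH lay above every other library of their leaf, and for OS02G0624300 the SL replicates spread from just above the other days to 7.12 CPM.

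**Figure D2:**
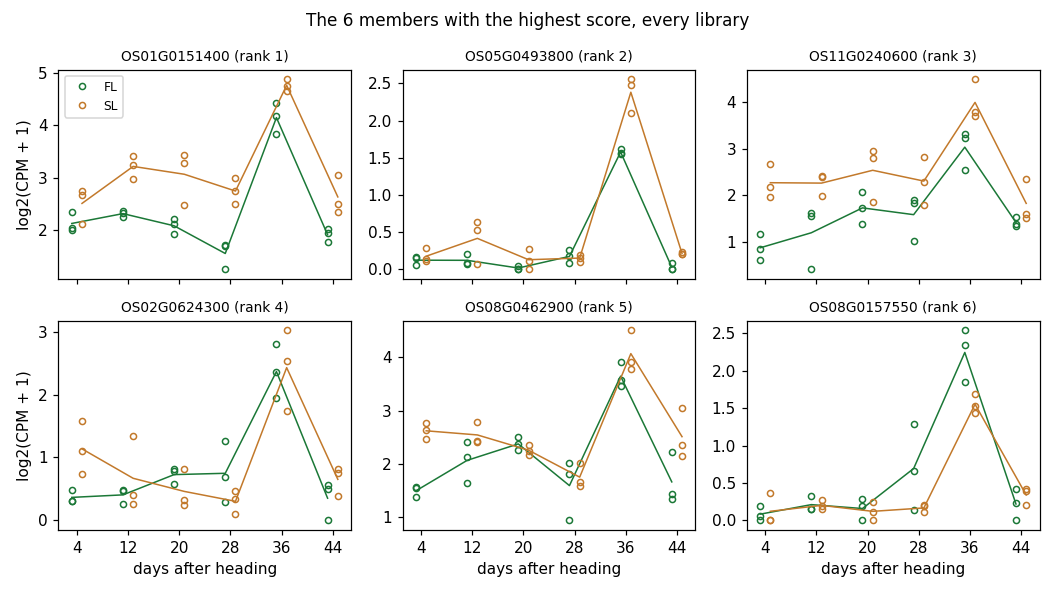
Transcript level of the 6 members with the highest score in every library, as log2(CPM + 1) against days after heading, with points for libraries and lines through the means of 3 replicates in FL (green) and SL (brown). At 36 DAH all points lie above those of the other days of the same leaf.

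The top 10 were completed by OS02G0206400, OS07G0519600, OS11G0443700 and OS10G0521500. OS07G0519600 had the largest FL score of them, 2.18, with 38.6, 32.4 and 38.8 CPM in FL at 36 DAH against 1.78 to 8.44 CPM otherwise. Its SL score was 1.17, with 50.5, 58.2 and 39.3 CPM at 36 DAH against 5.97 to 24.99 CPM otherwise. OS10G0521500 was measured at more in FL than in SL, at 4.92, 7.31 and 6.02 CPM against 2.55, 3.303 and 4.43 CPM in SL, a difference whose limma adjusted p was 0.063.

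The members that took the most counts at 36 DAH were OS05G0202800, OS01G0149800, OS09G0478300, OS05G0380200 and OS02G0704000. CPM are not divided by gene length, so they give no order of levels between genes. OS05G0202800 was measured at 758, 871 and 874 CPM in FL and at 939, 1187 and 1557 CPM in SL at 36 DAH, and at 238 to 616 CPM and 354 to 781 CPM in the other libraries. OS09G0478300 was measured at 451, 384 and 437 CPM in FL against 66.7 to 183 CPM otherwise. For OS01G0149800 the SL libraries of 36 DAH (333, 435 and 805 CPM) overlapped those of the other days (218 to 476 CPM), so its place in SL rested mostly on 1 library.

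Of the members, 82 had an entry in the reference table, of which 75 were protein coding, 4 were lncRNAs and 3 were pseudogenes, and 12 of the 82 carried a gene name. The 18 without an entry, among them 4 of the 5 members that took the most counts, are known here by their identifiers alone. The named members were picked out for their annotation after their values were seen, and they fall into transport, sugar and amino acid metabolism, hormone synthesis, cell wall, signalling and the clock.

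In transport, HMA5 (OS04G0556000), a copper-transporting ATPase, was measured at 28.1, 27.3 and 28.4 CPM in FL at 36 DAH against 3.96 to 11.4 CPM on the other days. In SL it was measured at 37.3, 37.2 and 27.9 CPM against 6.37 to 24.6 CPM. YSL14 (OS02G0633300), of the Yellow Stripe-Like family of metal-chelate transporters, was measured at 33.1, 29.2 and 26.5 CPM in FL against 5.25 to 20.1 CPM, and at 41.9, 41.2 and 38.95 CPM in SL against 12.5 to 25.9 CPM. Neither gene overlapped between 36 DAH and the other days.

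In metabolism, HXK6 (OS05G0187100, also HXK7 in the reference), a hexokinase that phosphorylates glucose, was measured at 12.3 to 16.6 CPM in FL and 14.8 to 18.7 CPM in SL at 36 DAH, and at no more than 8.65 and 10.2 CPM on other days. ASB2 (OS03G0718000), a subunit of the anthranilate synthase that leads into tryptophan synthesis, was measured at 17.8 to 20.6 CPM and 19.95 to 22.1 CPM, against at most 15.8 and 14.9 CPM. PDHE1-B (OS09G0509200), a subunit of pyruvate dehydrogenase, had a narrow range throughout, with 62.4, 68.2 and 73.1 CPM in FL at 36 DAH against 35.4 to 44.6 CPM otherwise. Its SL libraries of 36 DAH were at 64.2, 63.4 and 77.1 CPM against 36.3 to 53.6 CPM. In each of these genes the 36 DAH libraries lay above all others of their leaf.

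The gibberellin synthesis gene GA20ox2 (OS01G0883800), the semidwarf gene SD1 of rice breeding, was measured at 37.3, 39.6 and 47.5 CPM in FL at 36 DAH against 6.79 to 35.8 CPM otherwise. In SL it was measured at 42.8, 41.1 and 52.6 CPM against 13.2 to 34.4 CPM. Its highest FL library of another day came close to its lowest library of 36 DAH, and the gene was kept under 5 of the 10 settings of the rule. Of the cell wall genes, OsAT5 (OS05G0278500), a BAHD family acyltransferase, was measured at 61.6 to 73.4 CPM in FL and 51.9 to 65.3 CPM in SL. GLU3 (OS04G0497200), an endoglucanase, ran from 2.72 to 8.77 CPM in FL and from 4.22 to 7.22 CPM in SL and overlapped the other days in each leaf.

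Of the signalling genes, CIPK10 (OS03G0339900) and CIPK33 (OS11G0134300) are protein kinases that are activated by calcineurin B-like calcium sensors. CIPK10 was measured at 8.22 to 10.2 CPM in FL and 6.998 to 11.6 CPM in SL at 36 DAH, and at no more than 6.12 and 6.90 CPM on the other days. CIPK33 overlapped the other days in SL, where its libraries of 36 DAH were at 8.89, 16.2 and 6.49 CPM. XBOS36 (OS06G0128700), of a family of ankyrin repeat E3 ubiquitin ligases, was measured at 134, 127 and 146 CPM in FL and at 327, 225 and 254 CPM in SL. Of the 10 other settings of the rule, only 3 kept CIPK10 and GLU3, and 5 kept CIPK33 and PDHE1-B. YSL14 was kept under 7, HXK6, ASB2 and OsAT5 under 8, and HMA5 and XBOS36 under all 10.

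The only member in the lists of known gene groups was the clock gene PRR95 (OS09G0532400), whose product is a pseudo-response regulator that represses morning genes. In FL it was measured at 97.3, 159 and 172 CPM at 36 DAH, against means of 68.0 and 78.95 CPM at 4 and 12 DAH, 43.3 CPM at 20 DAH, 15.4 CPM at 28 DAH and 16.9 CPM at 44 DAH. In SL it was measured at 69.8, 131 and 108 CPM at 36 DAH, against 13.4 to 56.6 CPM in the means of the other days. Its level thus declined from 12 to 28 DAH, was highest at 36 DAH and was low again at 44 DAH, with no overlap of the 36 DAH libraries with any other day.

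The other clock genes give the setting of this member, under a contrast of 36 DAH with the mean of the other 5 days over both leaves that was added after the data were seen. In the limma fit 100 of the 100 members were higher at 36 DAH in that contrast, which only restates the rule, while 26.1% of all tested genes were called higher and 25.7% lower. Of the 9 other clock genes, 4 were lower and 2 higher. GI (OS01G0182600) was lower by a log2 difference of −2.66 ± 0.08 (SE, limma adjusted p = 7.2e-20), with 19.9, 21.6 and 24.7 CPM in FL at 36 DAH. Its FL means were 9.39 CPM at 4 DAH, 36.7 CPM at 12 DAH, and 268 CPM at 20 DAH, 515 CPM at 28 DAH and 600 CPM at 44 DAH, so that 36 DAH lay with the earliest days. PRR37 (OS07G0695100) differed by −1.23 ± 0.14 and PRR73 (OS03G0284100) by −1.36 ± 0.19, each with fewer transcripts at 36 DAH than at 28 and 44 DAH in every library.

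LHY (OS08G0157600) was higher by 0.34 ± 0.11 (SE, limma adjusted p = 0.0094), a call that was not made without replicate 1 (0.31) or replicate 2 (0.22). Its mean FL level of 4635 CPM at 36 DAH was below that of 4 DAH, 4791 CPM. In SL its mean at 36 DAH was 11.69 on the log2(CPM + 1) scale, below 4, 12 and 20 DAH (11.88, 12.09 and 11.88) and above 28 and 44 DAH (11.15 and 10.17). The clock genes therefore differed at 36 DAH. Levels were near those of 4 and 12 DAH for GI, PRR37 and, in FL, LHY, while PRR95 was above every other day. On the log2(CPM + 1) scale in FL, PRR73 was at 4.46, near 12 DAH (4.54) but below 4 DAH (6.04). ELF3 (OS06G0142600) was at 7.17, below 4 and 12 DAH (7.59 and 7.64), and OS11G0157600 at 6.66 was above them (6.20 and 6.34). These 3 genes stood likewise in SL. All libraries were harvested in the same hour of the morning, and the part of the clock in the other members was not tested.

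**Figure D3:**
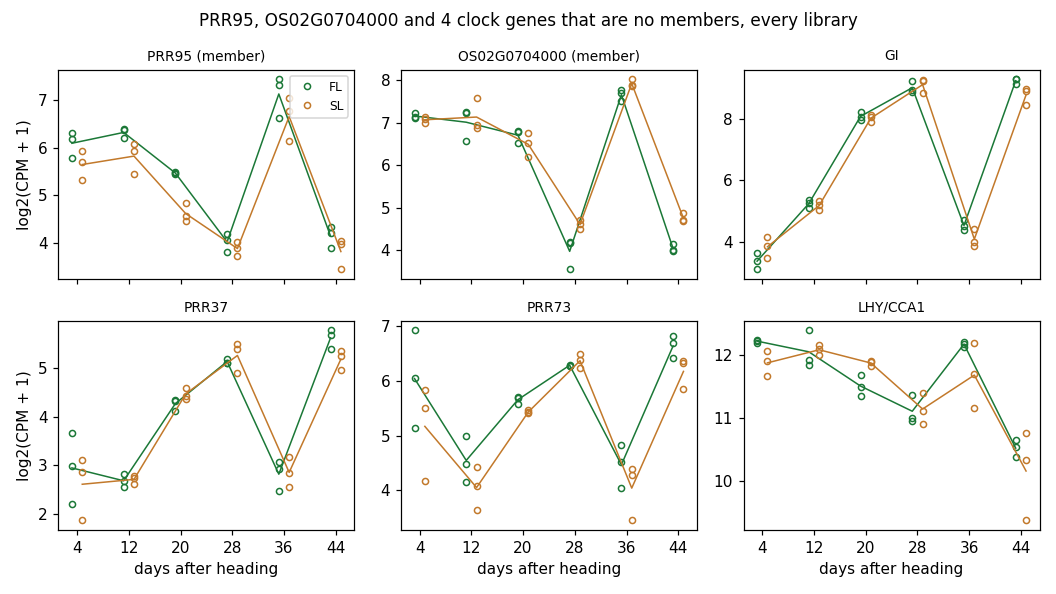
Transcript level of PRR95 and OS02G0704000 (members) and of GI, PRR37, PRR73 and LHY/CCA1 (no members) in every library, as log2(CPM + 1) against days after heading, with points for libraries and lines through the means of FL (green) and SL (brown). GI, PRR37 and PRR73 are low at 36 DAH between high values at 28 and 44 DAH, and both members run the opposite way.

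Other groups were described under the same added contrast, none of them with a member. All 6 tested DREB genes were called higher at 36 DAH than the mean of the other days, among them the cold-response factors DREB1A (OS09G0522200, 1.37 ± 0.22), DREB1B (OS09G0522000, 2.15 ± 0.32) and DREB1G (OS02G0677300, 1.51 ± 0.30). The SL replicates of DREB1G at 36 DAH lay far apart, at 0.11, 0.73 and 14.4 CPM, and those of DREB1B at 14.997, 5.504 and 50.5 CPM. In SL, DREB1B was higher at 4 DAH (mean 25.8 CPM) than at 36 DAH, at 4.72 against 4.13 on the log2(CPM + 1) scale. DREB1H (OS09G0522100) was so too, at 1.34 against 1.01, while the other tested DREB genes had their highest SL mean at 36 DAH. Of the 13 small heat shock protein genes listed, only 6 passed the filter on low values. Of these 6, 5 were called higher and 1 lower, and 2 of them higher without replicate 3. HSP18.6 (OS02G0782500) differed by 1.38 ± 0.17 and was highest at 36 DAH in each leaf. In the list of 8 other heat shock genes, 5 of the 6 tested were higher and 1 lower, and the HSP90 gene HSP81-1 (OS08G0500700) differed by 1.34 ± 0.08. HSP81-1 was higher still at 4 DAH, at 6.83 against 6.60 in FL and 6.74 against 6.67 in SL on the log2(CPM + 1) scale.

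Of the light-harvesting genes, 5 of 5 LhcA and 7 of 8 LhcB genes were called higher at 36 DAH than the mean of the other days. Their highest day was another one. The summed LhcB level was 2370 to 3045 CPM in FL at 36 DAH, against 9181 to 12218 CPM at 4 DAH and 269 to 432 CPM at 28 and 44 DAH. In SL the sums at 36 DAH were 1227, 1646 and 4413 CPM in replicates 1, 2 and 3, with a mean of 2429 CPM, or 1437 CPM without replicate 3, which was also the library with the highest DREB1B and DREB1G levels. The number of LhcB genes called higher was 7 without any of the replicate numbers. The remaining lists are counted over their tested genes. In them, 4 of 8 JAZ genes were higher and 1 lower, and 1 of 5 phytochrome and PIF genes higher and 3 lower. Lower were also 2 of 4 RbcS genes, 2 of 3 LEA and dehydrin genes and the 1 seed storage gene tested. The part of these groups in the members' levels was not tested.

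The members were mostly more abundant in SL. On the days other than 36 DAH, whose leaf difference the rule does not use, 64 of the 100 members had more transcript in SL and 6 had more in FL (limma, adjusted p below 0.05). Over all 22057 genes tested, 24.7% were higher in SL and 21.7% in FL. The median FL minus SL difference averaged over these days was −0.35 on the log2 scale for the members and −0.01 for all genes, and it was negative for 83 members. Leaving out each replicate number gave 54 to 57 members higher in SL and 5 to 7 higher in FL. Among the 64 are OS02G0484200, OS07G0525100, OS04G0175750 and OS04G0205101, which passed the filter on low values only with their libraries of 36 DAH.

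The largest difference was that of OS04G0429600, a pseudogene in the reference, at −2.39 ± 0.12 (SE, limma adjusted p = 1.1e-13). It was measured at 4.38 to 52.0 CPM (median 10.6) in the FL libraries of the other days and at 30 to 99.5 CPM (median 71.4) in those of SL. OS02G0206100 followed with −1.51 ± 0.10 and medians of 3.00 and 9.90 CPM, and OS05G0380200 with −1.47 ± 0.11 and medians of 35.5 and 110 CPM. The members with more in FL were led by OS09G0327400 at 0.75 ± 0.07, with medians of 49.3 CPM in FL and 31.6 CPM in SL. OS02G0205500 differed by 0.57 ± 0.15 and PRR95 by 0.43 ± 0.10, so the clock member belonged to the minority that was higher in FL.

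At 36 DAH itself, 20 members were higher in SL and 2 in FL, against 6.28% and 4.69% of all genes tested, with a median difference of −0.26 for the members and −0.03 for all genes. Of the 20, 19 were also higher in SL on the other days. The remaining call was OS05G0493800, which passed the filter on low values through its libraries of 36 DAH alone. OS07G0525100, among the 19, passed it only with its libraries of 36 DAH. These calls were few in number and depended on the libraries: without replicate 1, limma called none of the members (26 had an unadjusted p below 0.05) and only 19 of all 22057 genes, so the loss was general. Over all replicates, edgeR with TMM factors called 12 members higher in SL and 1 in FL, against 5.95% and 2.92% of all genes. Of the 100 differences, 78 were negative. The SL libraries of 36 DAH were the shallower ones and had the wider replicate spread given above, and the part of depth in these calls was not tested.

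The largest differences at 36 DAH among members called higher in SL were those of OS01G0652300, OS05G0380200 and OS02G0206100. OS01G0652300 was measured at 1.03, 0.76 and 0.80 CPM in FL and at 5.33, 1.22 and 3.64 CPM in SL, a difference of −1.20 ± 0.26 (SE, limma adjusted p = 0.0055). OS05G0380200 was measured at 220, 116 and 124 CPM in FL and at 483, 265 and 233 CPM in SL (−1.16 ± 0.25). OS02G0206100 was measured at 9.96, 12.1 and 15.4 CPM in FL and at 28.2, 21.9 and 31.8 CPM in SL (−1.08 ± 0.23). In each of them all SL libraries lay above all FL libraries.

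The 2 members called higher in FL were OS08G0157550 (0.67 ± 0.21), which reached the filter value in only 1 library of another day, and OS09G0327400, at 167, 130 and 134 CPM in FL and 63.8, 107 and 97.5 CPM in SL (0.63 ± 0.17). The largest positive difference of all belonged to OS08G0300501 (1.27 ± 0.78, limma adjusted p = 0.26), a gene singled out after its values were seen. It was measured at 0, 10.96 and 17.7 CPM in FL and at 0, 11.3 and 0.32 CPM in SL at 36 DAH, so that its replicates ranged from undetected to well expressed within 1 leaf and day.

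**Figure D4:**
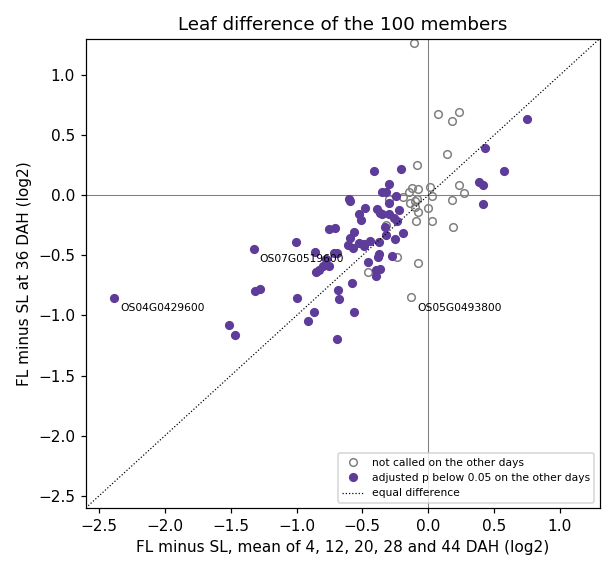
FL minus SL difference of the 100 members at 36 DAH (vertical axis) against its mean over the other 5 days (horizontal axis), both on the log2 scale, with filled points for members called on the other days and a dotted line of equal difference. Most points lie in the lower left, where SL is higher in each, and the 3 labelled members are those whose day-36 deviation was called different between the leaves.

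The rule asked for a high 36 DAH level in each leaf, so a like deviation of the leaves is partly built into the choice of members. In limma's test of the difference, FL deviation minus SL deviation, 2 members had a larger deviation in FL and 1 in SL, against 0.281% and 0.639% of all genes tested. The median was 0.12 on the log2 scale over the members and −0.009 over all genes tested. A larger deviation in FL was found in 63 members, a count that was not made over all genes. OS04G0429600 differed by 1.53 ± 0.30 (limma adjusted p = 0.017), with FL means of 9.21 CPM at 28 DAH and 104 CPM at 36 DAH against 61.2 and 181 CPM in SL. OS07G0519600 differed by 0.88 ± 0.22 (adjusted p = 0.049). For OS05G0493800 the fitted value was −0.72 ± 0.13 (adjusted p = 0.013), but the gene passed the filter through its libraries of 36 DAH alone, and edgeR gave the opposite sign (0.14 with TMM factors), so no direction is read from it. None of the 3 calls was made when any replicate number was left out, when 1 to 3 calls were made over all genes.

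Between the first and the last day the members went in both directions. The rule subtracts the highest of the other days, so a gene with a large change from 4 to 44 DAH scores lower, and the number of members that changed is in part set by the choice. Over both leaves 31 rose from 4 to 44 DAH and 25 fell (limma, adjusted p below 0.05), against 33.4% and 34.1% of all genes tested, and nothing is read from these shares. The median change was 0.08 for the members. The largest rises were those of OS01G0128200 (3.32 ± 0.26), XBOS36 (2.22 ± 0.15) and OS04G0429600 (1.81 ± 0.19). The largest falls were those of OS02G0704000 (−2.68 ± 0.13), OS04G0420033 (−2.495 ± 0.14) and PRR95 (−1.84 ± 0.15).

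OS01G0128200 increased over the earlier days in SL, from a mean of 1.56 CPM at 4 DAH through 13.7, 34.1 and 39.8 CPM to 53.9 CPM at 36 DAH, and its SL libraries of 36 DAH (65.7, 58.7 and 37.4 CPM) overlapped those of the other days, of which the highest was 72.2 CPM. In FL it was at 1.03 CPM at 4 DAH and 31 CPM at 36 DAH. XBOS36 also increased up to 28 DAH in SL, from 18.1 to 154 CPM, and stood at 268 CPM at 36 DAH and 113 CPM at 44 DAH. For these genes 36 DAH continued a rise and 44 DAH broke it.

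OS02G0704000 and OS04G0420033 had the opposite course and that of PRR95. OS02G0704000 had FL means of 142 CPM at 4 DAH, 131 CPM at 12 DAH, 104 CPM at 20 DAH, 15.1 CPM at 28 DAH, 201 CPM at 36 DAH and 15.5 CPM at 44 DAH. OS04G0420033 had FL means of 6.57, 4.66, 1.68 and 0.39 CPM on the first 4 days, 13.3 CPM at 36 DAH and 0.45 CPM at 44 DAH. In both genes the SL means were likewise lowest at 28 and 44 DAH and highest at 36 DAH. Low values at 28 and 44 DAH below those of 4, 12 and 20 DAH in both leaves were found in 15 members, GA20ox2 and OS09G0509100 among them, and in 17.1% of all genes tested. The days of this comparison also enter the rule, and nothing is read from the share.

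**Figure D5:**
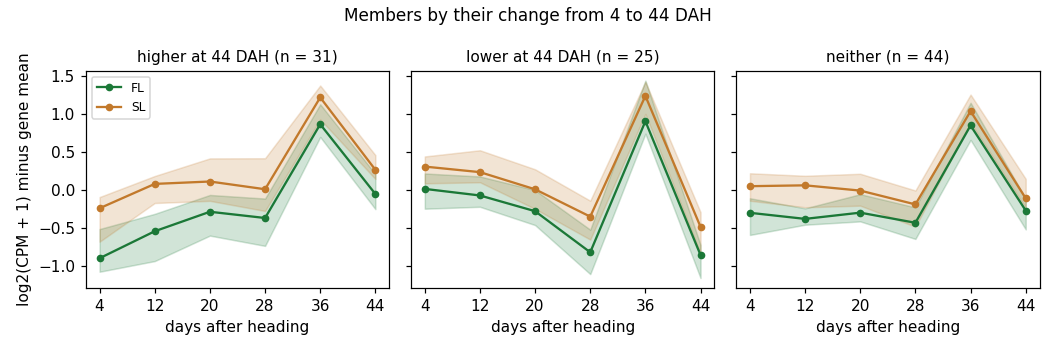
Median course of the members that rose from 4 to 44 DAH (31), fell (25) or did neither (44), as log2(CPM + 1) minus the mean of the gene over the 12 combinations, against days after heading in FL (green) and SL (brown), with bands from the lower to the upper quartile of genes. In the falling group the FL medians of 28, 36 and 44 DAH are −0.82, 0.90 and −0.85, while those of the rising group are −0.37, 0.87 and −0.05.

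The day that came next below 36 DAH varied among the members. In FL it was 44 DAH for 30 members, 20 DAH for 26, 4 DAH for 17, 12 DAH for 15 and 28 DAH for 12. In SL it was 4 DAH for 27, 12 DAH for 25, 44 DAH for 24, 20 DAH for 16 and 28 DAH for 8. The highest of the other days enters the rule, and these counts were not made over all genes tested, so nothing is read from them.

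A few members were next to each other in the genome. In the order of genes in the reference, OS02G0205500, OS02G0206100 and OS02G0206400 followed each other on chromosome 2, and OS09G0509100 and OS09G0509200 (PDHE1-B) on chromosome 9. The 3 genes on chromosome 2 did not share the leaf difference, which was 0.57 for OS02G0205500, −1.51 for OS02G0206100 and −0.86 for OS02G0206400 on the days other than 36 DAH. The authors' alignment kept reads with several locations. How the counting treated such reads is not given in the sources used here, and their part in these values was not tested. OS09G0509100 was measured at 75.1, 71.7 and 77.5 CPM in FL and at 102.6, 98.7 and 124 CPM in SL at 36 DAH.

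OS09G0305300, which the study annotates as a DUF247 family protein, was measured at 1.88, 5.23 and 7.05 CPM in FL and at 2.67, 5.63 and 6.65 CPM in SL at 36 DAH. Replicate 1 was the lowest in each leaf, and in FL it overlapped the other days, whose highest library was at 1.89 CPM.

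Among genes that are no members, those whose 12 means correlated best with the mean course of the members were OS01G0346600, OS07G0496000, OS03G0815700 (SPIN1, an RNA-binding protein of the flowering pathway), OS08G0439600 and OS02G0199900, with Pearson's r from 0.92 to 0.94 over 12 combinations of leaf and day. They are a description of likeness among combinations that share libraries and days. OS07G0496000 had the course at a small amplitude, from 6.61 at 28 DAH to 6.89 at 36 DAH in FL on the log2(CPM + 1) scale, while SPIN1 went from 4.11 to 5.39.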

How the data were processed

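Flag and second leaves of rice were sequenced as paired-end stranded mRNA libraries (36 libraries, 12 combinations of leaf and day, 3 replicates each). Per the labels and the study's methods, the authors called bases with CASAVA 1.8.2, trimmed with cutadapt 1.2.1, aligned with TopHat2 2.0.10 and Bowtie to IRGSP-1.0, counted with HTSeq 0.6.1 and scaled with edgeR. The deposited table gives a scaled signal per gene, in CPM, whose columns sum to between 918736 and 1146150. Every value was a whole multiple of the worth of 1 read in its library (100% within 0.01 reads), so reads were recovered for an edgeR count test as an alternative.

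Values were transformed as log2(CPM + 1). For the tests they were quantile normalized and kept only for the 22057 of 38026 genes that reached 1 on the log2 scale in no fewer than 3 libraries, and fitted with limma 3.58.1 (trend) over the 12 combinations of leaf and day, with Benjamini-Hochberg adjustment over all genes tested and a threshold of 0.05. Alternatives were no quantile normalization, a pseudocount of 0.1, no filter, and edgeR 4.0.16 with TMM or RLE factors. Further alternatives were the 6 libraries of 36 DAH alone and leaving out each replicate number. A replicate block was set for same-numbered FL and SL libraries of a day (leaf differences) or for the replicate number (change between days). The fits were tested on simulated data. The members and the gene lists were chosen with earlier results of these data known. Replicate numbers were taken from the labels. Figures were drawn with matplotlib 3.10.9.

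Genes named are the 10 with the highest score, the 5 with the highest mean CPM at 36 DAH, the 3 on each side of the limit, members of the gene lists, the 3 largest called differences in each direction per contrast and the 5 non-members of most like course. Members with a gene name, OS09G0305300, OS08G0300501 and the neighbouring genes were added after seeing the data. The choice of members by keyword family was not run, because the reference table used gives names and synonyms only for some genes. Names came from a RefSeq table of another assembly (ASM3414082v1, 23730 identifiers matched), so no coordinates are given.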

Additional observations from a re-analysis of the deposited data

Results flagged for a closer look

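The day-36 deviation of 3 members differed between the leaves in limma's test of the difference: OS04G0429600 (FL minus SL 1.53, adjusted p = 0.017), OS07G0519600 (0.88, adjusted p = 0.049) and OS05G0493800 (−0.72, adjusted p = 0.013). Of the list genes named for the contrast of 36 DAH with the other days, the small heat shock protein gene HSP17.9A (OS03G0266300) also differed, by −0.76 (adjusted p = 0.039), with the larger deviation in SL. OS05G0493800 passed the filter on low values through its libraries of 36 DAH alone, and its difference had the opposite sign in edgeR. None of these 4 calls was made when replicate 1, 2 or 3 was left out, and HSP17.9A was not called by edgeR either (adjusted p = 0.18 with TMM factors). Over all genes tested, 203 differences passed this threshold, and 3, 1 and 2 did so without replicate 1, 2 and 3.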

How the results depend on the processing

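Of the 100 members, 61 were chosen again with a pseudocount of 0.1 and 40 when 36 DAH was compared with the mean rather than the highest of the other 5 days. Leaving out replicate 1, 2 or 3 kept 70 to 75. The leaf difference on the other 5 days and the change from 4 to 44 DAH stayed within 1.5 times of their counts under every alternative run.

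At 36 DAH, members higher in SL numbered 11 without quantile normalization (4.26% of all genes), 11 with a pseudocount of 0.1 (5.75%), 12 without a filter (2.71%), 12 with edgeR and TMM factors (5.95%), 10 with edgeR and RLE factors (5.21%) and 0 with limma on the 6 libraries of that day alone (33 with an unadjusted p below 0.05), when 0 of all genes were called. With a replicate left out they numbered 0 to 13, namely 0 without replicate 1 (0.0317% of all genes), 13 without replicate 2 (5.58%) and 10 without replicate 3 (1.87%). Members higher in FL numbered 1 with a pseudocount of 0.1, without a filter and with either edgeR setting (4.27%, 1.79%, 2.92% and 3.38% of all genes), 0 in the 6 libraries alone, and 0 to 2 with a replicate left out.

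For the difference in day-36 deviation, members larger in FL numbered 1 without a filter, and members larger in SL numbered 0 with a pseudocount of 0.1 and with either edgeR setting. Both were 0 to 0 with a replicate left out (limma, 10 to 12 members with an unadjusted p below 0.05), when 3, 1 and 2 of all genes were called without replicate 1, 2 and 3. OS05G0493800 reversed under edgeR, to 0.14 with TMM factors and 0.15 with RLE factors, with adjusted p of 0.83 and 0.82. The cause was not tested. Of 284 values of named genes under alternatives, 243 kept their direction and side of the threshold and 39 kept their direction only.

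Same-numbered FL and SL libraries of a day deviated together only in part (mean r 0.17, over 0.1 in 11 of 18 pairs), against a mean r of −0.09 and 7 of 36 pairs for different numbers. No label ties the numbers across leaves and not every pair was over 0.1, so the numbers were not taken as pairs. As an alternative, same-numbered FL and SL libraries of a day were fitted as blocks. The members with more in FL then numbered 5 and those with more in SL 22 at 36 DAH (7.29% and 9.0% of all genes). On the other days they numbered 8 and 68, and 1 member had a larger deviation in FL. The change from 4 to 44 DAH was not fitted with these blocks, and it kept its counts under a separate block for the replicate number. Of the members, 28 members had at least 1 library at 3 reads or fewer.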
